A study of Arabidopsis thaliana with 12 samples.

Results

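BAT1 and BRL1 are the 2 genes described here, out of 13356 genes that the array annotation names through a probe set of their own. BAT1 (AT4G31910, also known as PIZZA) encodes an acyltransferase of the BAHD family that conjugates and thereby inactivates brassinosteroids. BRL1 (AT1G55610) encodes a leucine-rich repeat receptor kinase that resembles BRI1 and binds brassinosteroids. Both were picked by name from the annotation, with earlier results of these data known, and each has 1 probe set named for it. Their p values and ranks are thus not those of genes picked blind to the data. In RefSeq the symbol BAT1 is carried by 2 genes, and the Entrez identifier of the probe set belongs to the acyltransferase, not to the amino acid transporter of the same symbol.

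Brassinosteroids are steroid hormones that promote cell expansion and division. They are perceived outside the cell by BRI1 and its relatives together with co-receptors of the SERK family, and the signal ends in the transcription factors BZR1 and BES1. Their level in a tissue depends on synthesis by cytochrome P450 enzymes and on inactivation by hydroxylases, glucosyltransferases and acyltransferases such as BAT1. BRI1 is widespread, whereas BRL1 is known mainly from vascular tissue. Brassinosteroid levels are kept low in the boundaries between organs, where LATERAL ORGAN BOUNDARIES (LOB), a transcription factor, is expressed. Published work on LOB places BAS1, a cytochrome P450 that inactivates brassinosteroids, under its control. BAS1 has no probe set of its own among those named, so its level was not analysed here.

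Total RNA of whole Arabidopsis thaliana seedlings in the Col-0 background was hybridised to 12 one-colour arrays, 3 for each of 4 groups. Seedlings were 9 days old and either wild type (Col) or 35S:LOB-GR, which carry LOB joined to the steroid-binding part of the glucocorticoid receptor under the constitutive 35S promoter. Each genotype was shaken for 4 h in liquid MS medium, either with dexamethasone (DEX) at 5 µM, which lets such fusions enter the nucleus, or without it (mock). The groups are called Col mock, Col DEX, LOB-GR mock and LOB-GR DEX. The 35S promoter is known to be active in most tissues, and the level and location of the fusion were not measured here. The sources used here do not say whether the 35S:LOB-GR seedlings descend from 1 line, or whether arrays stand for separate plates. The arrays are labelled as biological replicates, and p values measure the spread between them, which may be partly technical.

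Values are log2 RMA expression values, and array medians ran from 5.88 to 5.97. Arrays of 1 group correlated at 0.992 or higher across probe sets, and replicate 1 of LOB-GR DEX lay farthest from its group mean. RCA, a marker of green tissue and the 1 of 4 shoot markers named for its own probe set, was between 13.57 and 13.86 on all arrays. That is close to the highest value of any probe set, 14.14, so RCA says little about tissue composition. The root hair expansins EXPA7 and EXPA18, the 2 of 5 root markers named for their own probe set, were at 4.73 to 5.53. The annotation named no vascular marker of the list used for a probe set of its own. None of these markers was called in any comparison, where the share of all probe sets called ran from 0.0572% to 21.5%. With so few markers, the absence of calls does not show that tissue composition was the same. The actin controls, whose excess of 3′ over 5′ signal reflects RNA integrity, gave an excess of 2.15 ± 0.14 in LOB-GR mock and 2.13 ± 0.11 in LOB-GR DEX (log2, SD, n = 3). In Col this excess was 2.38 ± 0.09 under mock and 2.04 ± 0.08 under DEX (log2, SD, n = 3). For ubiquitin it was 0.66 ± 0.03 in Col mock, 0.55 ± 0.06 in Col DEX, 0.49 ± 0.03 in LOB-GR mock and 0.55 ± 0.09 in LOB-GR DEX. For GAPDH it was -0.18 ± 0.13, -0.22 ± 0.07, -0.32 ± 0.03 and -0.32 ± 0.03 in the same order. Under mock neither the actin nor the ubiquitin arrays of the genotypes overlapped, and the same held between Col mock and Col DEX. The GAPDH arrays overlapped in both cases. The part of RNA quality in the genotype comparisons, the DEX comparison in Col and the difference of responses was not tested.

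BAT1 was higher in LOB-GR DEX seedlings than in any other group. Its values there were 7.34, 7.34 and 7.23. In LOB-GR mock they were 6.49, 6.55 and 6.56. The Col mock arrays read 6.79, 6.66 and 6.55, and the Col DEX arrays 6.59, 6.58 and 6.76. All 3 LOB-GR DEX arrays lay above the other 9, with a gap of 0.44 to the highest of them, while the other 9 spanned 0.31 and the groups among them overlapped, except that LOB-GR mock and Col DEX lay apart by a narrow margin. Group means were 7.30 ± 0.06 in LOB-GR DEX, 6.67 ± 0.12 in Col mock, 6.64 ± 0.10 in Col DEX and 6.53 ± 0.04 in LOB-GR mock (log2, SD, n = 3). Of the lower 3 groups, neither Col DEX nor LOB-GR mock was called different from Col mock, and Col DEX was not tested against LOB-GR mock.

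BRL1 was also highest in LOB-GR DEX, with a wider gap. Its values in LOB-GR DEX were 5.17, 5.03 and 5.04. In LOB-GR mock they were 3.77, 3.78 and 3.82. The Col mock arrays read 3.68, 3.65 and 3.68, and the Col DEX arrays 3.81, 3.71 and 3.64. The LOB-GR DEX arrays again lay above the other 9, here by a gap of 1.21, and those 9 spanned 0.18. Group means were 5.08 ± 0.08 in LOB-GR DEX, 3.79 ± 0.03 in LOB-GR mock, 3.72 ± 0.08 in Col DEX and 3.67 ± 0.01 in Col mock (log2, SD, n = 3). The Col DEX arrays overlapped both mock groups, while the mock groups did not overlap each other.

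Both genes were among the 5.72% of all probe sets whose 3 LOB-GR DEX arrays exceeded the other 9. By the size of that gap, 113 probe sets stood above BAT1 and 12 above BRL1. Seedlings were profiled whole, so a higher level in each cell and a larger number of cells with the transcript cannot be told apart.

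**Figure D1:**
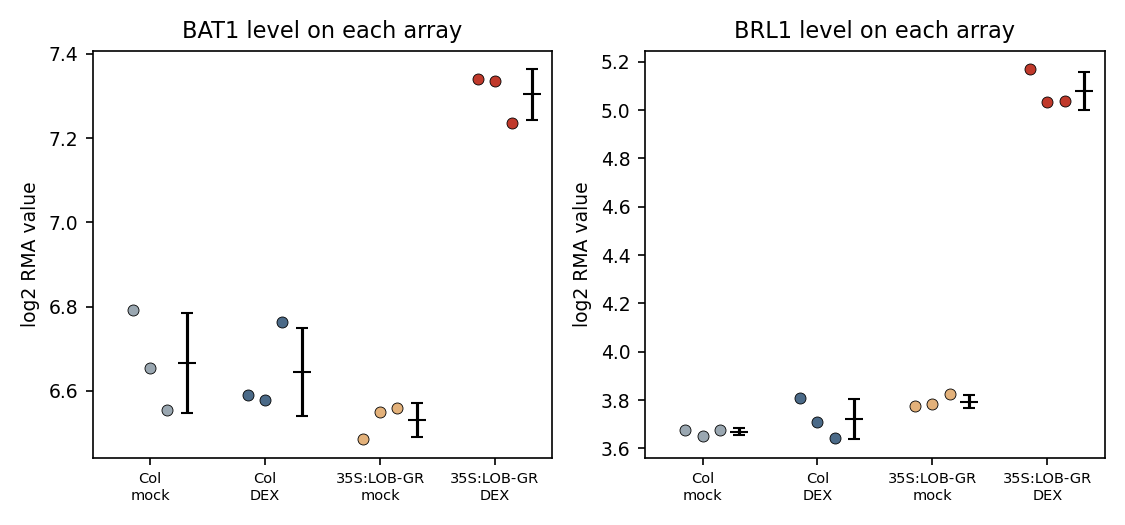
Levels of BAT1 (left) and BRL1 (right) on each of the 12 arrays, in log2 RMA values on axes that do not start at 0. Points are arrays in replicate order within each group, and the bar beside them is the mean with its SD (n = 3). The 3 LOB-GR DEX arrays lie above the other 9 for both genes, by 0.44 for BAT1 and by 1.21 for BRL1.

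The first comparison asks what activation of the fusion changed in 35S:LOB-GR. BAT1 rose by 0.77 ± 0.09 (SE) on the log2 scale, or 1.71-fold, with a 95% interval of 0.58 to 0.96 (limma adjusted p = 3.57e-05). BRL1 rose by 1.29 ± 0.08, or 2.44-fold, with an interval of 1.12 to 1.46 (limma adjusted p = 1.77e-07). For both genes the DEX arrays lay above the mock arrays without overlap, as they did for 11.8% of all probe sets. In the same comparison 9.97% of 22746 probe sets were called at an adjusted p under 0.05, 904 higher (3.97%) and 1363 lower (5.99%). Subtracting array medians gave 2474 calls, 1311 of them higher, and both genes remained called higher. By size of rise BRL1 ranked 45 and BAT1 168 among all probe sets. By p value BRL1 ranked 10 and BAT1 199.

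The spread between arrays was low for both genes. The residual SD over the 4 groups was 0.06 for BRL1 and 0.09 for BAT1, against a median of 0.13 over all probe sets. Only 2.40% of probe sets had a smaller residual SD than BRL1, and 14.6% a smaller one than BAT1. In the mock groups BRL1 lay in the lowest part of the range of values. Its mean was above that of 12.9% of probe sets in Col mock and 16.8% in LOB-GR mock, and above 40.4% in LOB-GR DEX. BAT1 was above 57.6% of probe sets in LOB-GR mock and 68.7% in LOB-GR DEX. Detection calls were not used, and values near the low end hold much background, which compresses differences, so the fold of BRL1 is less certain than that of BAT1.

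In Col, DEX changed neither gene by an amount the fit could call. BAT1 was at -0.02 ± 0.09, with a 95% interval of -0.21 to 0.17 (limma adjusted p = 0.953). BRL1 was at 0.05 ± 0.08, with an interval of -0.12 to 0.22 (limma adjusted p = 0.852). The upper ends of these intervals lay below the lower ends of the intervals in 35S:LOB-GR. Only 0.0572% of probe sets were called in Col, 13 in all, while 2886 had an unadjusted p under 0.05. That count was 2 without any 1 of the 3 DEX arrays of Col or without its mock replicate 1, 5 without mock replicate 2 and 69 without mock replicate 3. It was 141 without DEX replicate 1 of LOB-GR, whose spread enters the fit, and 20 to 24 without its DEX replicate 2 or 3 or its mock replicate 2 or 3. The sign of the BAT1 value in Col turned when array medians were subtracted and when some single arrays were left out, so it has no settled direction.

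**Figure D2:**
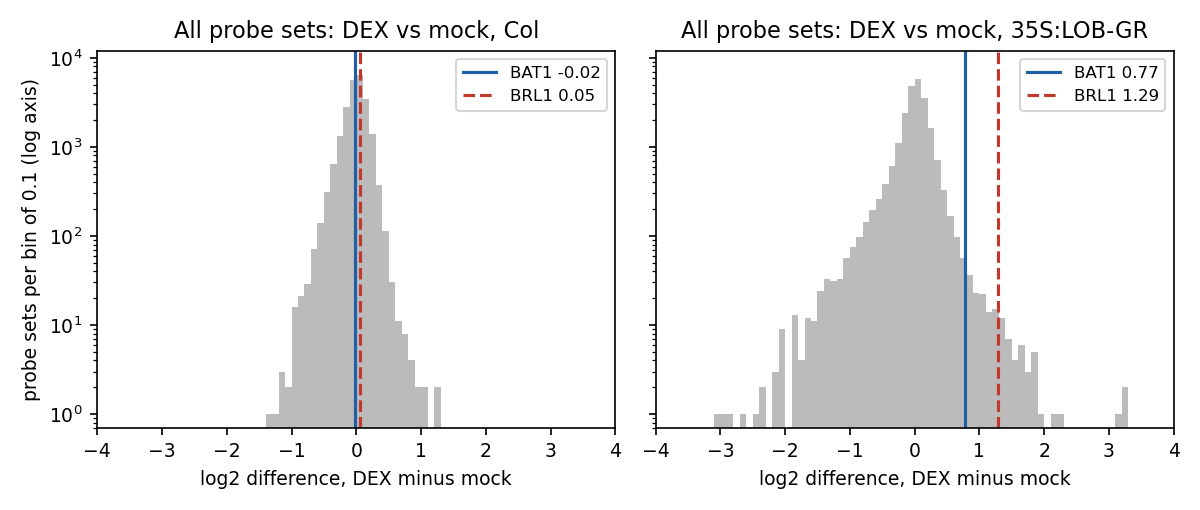
Distribution of log2 differences between DEX and mock over 22746 probe sets in Col (left) and 35S:LOB-GR (right), with the number of probe sets per bin on a log axis. The solid line marks BAT1 and the dashed line BRL1. In Col both lie near 0 (-0.02 and 0.05), and in 35S:LOB-GR they lie in the upper tail (0.77 and 1.29).

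The difference of the responses tests whether the DEX effect depended on the genotype. It was 0.79 ± 0.13 for BAT1 (limma adjusted p = 0.00145) and 1.23 ± 0.11 for BRL1 (limma adjusted p = 1.91e-05). In this comparison 4.77% of probe sets were called, 1.82% with the higher response in 35S:LOB-GR. BRL1 ranked 58 and BAT1 250 among higher responses. The 95% intervals were 0.53 to 1.06 for BAT1 and 0.99 to 1.47 for BRL1.

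Without DEX the genotypes were not called different for either gene. BAT1 was at -0.14 ± 0.09 in LOB-GR mock relative to Col mock (limma adjusted p = 0.414), with an interval of -0.32 to 0.05. BRL1 was at 0.13 ± 0.08 (limma adjusted p = 0.398), with an interval of -0.04 to 0.30. The 3 LOB-GR mock arrays of BRL1 did lie above the 3 Col mock arrays, as did those of 14.8% of all probe sets. Of all probe sets 10.9% were called in this comparison.

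Under DEX both were higher in 35S:LOB-GR than in Col, BAT1 by 0.66 ± 0.09, or 1.58-fold (limma adjusted p = 6.2e-05), and BRL1 by 1.36 ± 0.08, or 2.56-fold (limma adjusted p = 1.53e-08). Here 21.5% of probe sets were called, 11.7% higher. For BAT1 the genotype difference under DEX was smaller than the DEX response within 35S:LOB-GR, and for BRL1 it was larger, and the values under mock were of opposite sign. These comparisons share the LOB-GR DEX arrays.

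Few other brassinosteroid genes could be set beside them. Of 71 genes in 5 lists of brassinosteroid genes, the annotation named 5 for a probe set of their own. These were BAT1 of 8 inactivation genes, BRL1 of 8 receptors and co-receptors, BIM1 and CES of 26 signalling genes, and EXPA8 of 13 growth genes that respond to the hormone. None of 16 biosynthesis genes was among them. The other genes may be measured by the 8730 probe sets without a gene name or the 503 with several, which were not used for naming. For DEX in 35S:LOB-GR 2 of the 5 rose, BAT1 and BRL1 themselves, 2 fell and 1 was not called, beside 3.97% of all probe sets called higher and 5.99% lower. The median of the 5 was 0.10, where the median over all probe sets was 0.02. In Col none of the 5 was called by limma (adjusted p of 0.233 for EXPA8 and higher for the others). Only 0.0572% of all probe sets were called in that comparison, so this absence is not particular to the 5. Of the 5, only EXPA8 had an interval that left out 0. The difference of responses was called for 3 of the 5, BAT1 and BRL1 higher and EXPA8 lower, beside 4.77% of all probe sets. With 5 measured genes, 2 of them BAT1 and BRL1, these counts do not describe the pathway as a whole.

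BIM1, a basic helix-loop-helix factor that binds DNA together with BES1, fell while BAT1 and BRL1 rose. Its values were 7.52, 7.63 and 7.87 in LOB-GR mock and 7.24, 7.21 and 7.16 in LOB-GR DEX, and these groups did not overlap. The fall was 0.47 on the log2 scale, from 7.68 ± 0.18 to 7.20 ± 0.04 (SD, n = 3; limma adjusted p = 0.0051). In Col, where it read 7.98 to 8.22 under mock and 8.04 to 8.09 under DEX, the value was -0.06 (limma adjusted p = 0.875). The difference of its responses, -0.42, was not called (limma adjusted p = 0.117). BIM1 was also lower in 35S:LOB-GR under mock, at -0.44 (limma adjusted p = 0.00837), unlike BAT1 and BRL1, and at -0.86 under DEX (limma adjusted p = 1.35e-05).

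CES (CESTA), a factor of the same class that promotes brassinosteroid synthesis genes, lay at 3.54 to 3.88 over the 12 arrays, near the low end of the values. It was called in none of the 5 comparisons, and its value for DEX in 35S:LOB-GR was 0.10, with an interval of -0.10 to 0.29 (limma adjusted p = 0.626).

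EXPA8, a wall-loosening expansin that brassinosteroids induce, moved opposite to the pair. It was at 7.35 ± 0.40 in LOB-GR mock and 5.29 ± 0.44 in LOB-GR DEX (SD, n = 3), where the arrays read 5.72, 4.83 and 5.32. That is a change of -2.06 ± 0.23 (limma adjusted p = 2.86e-05). The Col arrays read 8.84 to 9.58 under mock and 9.74 to 10.12 under DEX, above all 6 arrays of 35S:LOB-GR. The difference of its responses was -2.73 ± 0.33 (limma adjusted p = 0.00015).

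RefSeq names 2 further measured genes after brassinosteroids, which were added once the annotation had been seen. BRH1, a RING finger gene known to respond to the hormone, was at 0.04 for DEX in 35S:LOB-GR (limma adjusted p = 0.884). It was lower in 35S:LOB-GR than in Col, at -0.53 under mock (limma adjusted p = 0.00598) and -0.69 under DEX (limma adjusted p = 0.00037). BIN4, part of a DNA topoisomerase complex needed for endoreduplication, lay between 4.28 and 4.70 and was called in none of the 5 comparisons.

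**Figure D3:**
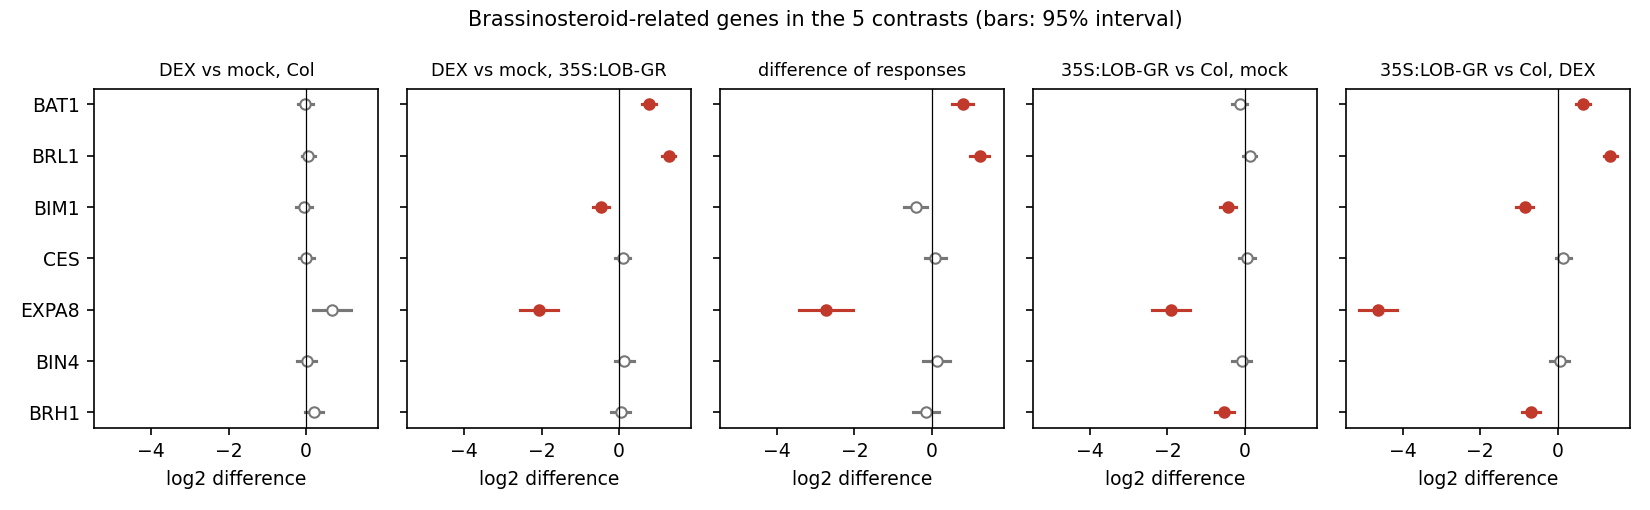
Log2 differences of the 7 measured brassinosteroid-related genes in the 5 comparisons, with 95% intervals. Filled red points passed an adjusted p under 0.05 over all probe sets and open grey points did not. BAT1 and BRL1 are higher in each comparison that sets LOB-GR DEX against another group and near 0 in the other 2 (-0.14 to 0.13). BIM1, EXPA8 and BRH1 are lower in 35S:LOB-GR than in Col under mock already.

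Among organ boundary genes 1 of 8 was named for its own probe set, LAS, a GRAS-family factor of axillary meristems. It was at -0.14 for DEX in 35S:LOB-GR, not called (limma adjusted p = 0.566), and in no other comparison was it called.

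The patterns of BAT1 and BRL1 were then compared with those of all named genes. Likeness was measured as the root mean square difference of log2 values over the 12 arrays after each gene's own mean was subtracted. It thus sets levels aside and compares patterns together with the size of their changes. These are descriptions with no test, since the genes were chosen for the likeness. The 5 genes most like BAT1 were AT4G20880, AT5G48800, AT5G27930, AT1G64700 and JAL33, a jacalin-related lectin. They differed from it by 0.12 to 0.13 per array, where the pattern of BAT1 itself had a spread of 0.31. Their DEX differences in 35S:LOB-GR lay between 0.70 for AT1G64700 and 1.02 for AT5G27930, and those in Col between -0.11 for AT1G64700 and -0.05 for AT4G20880.

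The genes most like BRL1 were AT3G22540, AT4G37295, EXPA4, AT5G57100 and AT1G33170. They differed from it by 0.12 to 0.18 per array, against a spread of 0.59 of BRL1 itself. EXPA4, another expansin, was at 8.48 ± 0.11 in LOB-GR mock and 9.88 ± 0.07 in LOB-GR DEX (SD, n = 3). Its DEX differences were 1.39 in 35S:LOB-GR and 0.05 in Col, beside 1.29 and 0.05 for BRL1. Unlike BRL1, EXPA4 was called higher in 35S:LOB-GR than in Col under mock (0.34, limma adjusted p = 0.0294). AT3G22540 was also dim, at 3.60 ± 0.09 in LOB-GR mock, and at 5.01 ± 0.11 in LOB-GR DEX (SD, n = 3). BAT1 and BRL1 were not close neighbours by this measure, at a difference of 0.32 per array. Among 13435 probe sets BAT1 was at rank 84 for likeness to BRL1, and BRL1 at rank 5175 for likeness to BAT1. The measure counts the size of a change, and BRL1 rose by 1.29 with DEX in 35S:LOB-GR where BAT1 rose by 0.77. The ranks therefore do not show that the 2 patterns differ in shape.

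**Figure D4:**
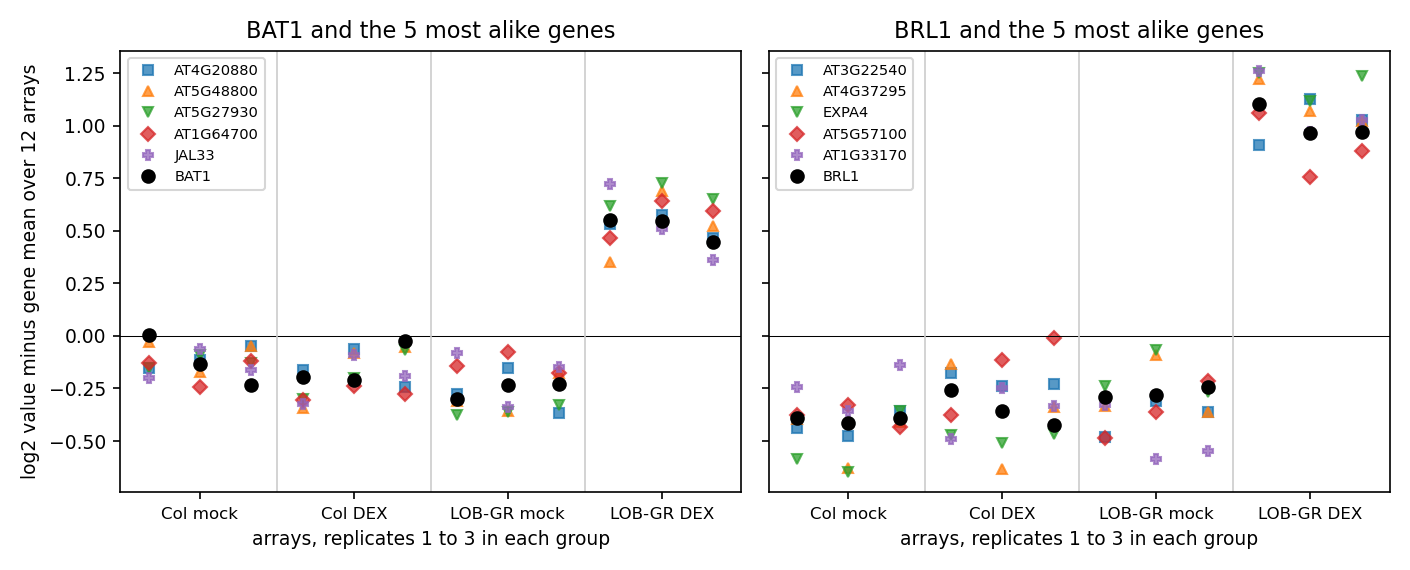
Log2 values minus each gene's mean over the 12 arrays for BAT1 (left) and BRL1 (right) in black, with the 5 genes most like each in colour. Arrays are ordered by group, and lines separate the groups. With DEX in 35S:LOB-GR the genes beside BAT1 differ from mock by 0.70 to 1.02 and those beside BRL1 by 1.25 to 1.58.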

How the data were processed

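The deposited table holds log2 expression values. The submitters' processing notes name RMA as the method, and the sources used here give no version of it. RMA sets all arrays to a common distribution, so a shift of most transcripts in 1 direction would be reduced. Of 22810 probe sets, 64 Affymetrix controls were left out and 22746 tested. The platform annotation gave 1 gene for 13513 of them, several for 503 and none for 8730, and 13436 of the one-gene probe sets matched a RefSeq gene of assembly TAIR10.1 by Entrez identifier. Only one-gene probe sets were named. No coordinates are given because the files name no build, and sequences were not used here.

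A model of 4 group means over the 12 arrays was fitted in limma (version 3.58.1, R version 4.3.3), with eBayes, 8 residual and 6.86 prior degrees of freedom. Tests were two-sided, with Benjamini-Hochberg adjustment over 22746 probe sets and a threshold of 0.05. With simulated data and 200 changed probe sets, the fit recovered 63% of log2 changes of 0.5 and 94% of changes of 1 for DEX in 35S:LOB-GR, and 18% and 74% for the difference of responses. In the data these comparisons called 2267 and 1085 probe sets, more than were changed in the simulation, so the recovered shares need not hold there. Having 3 arrays per group limits the precision.

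The genes, their lists and the rule for naming others were chosen with earlier results of these data known. The rule named BAT1 and BRL1, the measured genes of the lists, the 5 genes most like each and the measured genes within 2 positions on either side. Alternatives were subtraction of array medians, a filter on dim probe sets, a fit of only the groups compared, another spread estimate, array weights, a replicate block, a threshold of 0.01 and each array left out in turn.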

Additional observations from a re-analysis of the deposited data

Results flagged for a closer look

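Among the 5 measured genes of the brassinosteroid lists and the 2 added by name, 3 had a DEX response that differed between the genotypes. The test was that of the difference (35S:LOB-GR minus Col, log2, limma adjusted over all probe sets), which called 4.77% of all probe sets. BAT1 and BRL1 were picked with earlier results of these data known. The difference was 0.79 for BAT1 (adjusted p = 0.00145), with all 3 LOB-GR DEX arrays above the LOB-GR mock arrays and overlapping groups in Col. The value was 1.23 for BRL1 (adjusted p = 1.91e-05), again with separate groups in 35S:LOB-GR and overlapping ones in Col. EXPA8 was at -2.73 (adjusted p = 0.00015), with all DEX arrays below the mock arrays in 35S:LOB-GR and all above them in Col, where its change was not called.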

How the results depend on the processing

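BAT1 and BRL1 kept their calls for DEX in 35S:LOB-GR, the difference of responses and the genotype difference under DEX under every alternative that gave a value, and were called in neither of the other comparisons. BRL1 has no value with the dimmest 25% of probe sets left out, since it was among them. With single arrays left out, the DEX response in 35S:LOB-GR was 0.75 to 0.81 for BAT1 and 1.24 to 1.31 for BRL1, and the difference of responses 0.73 to 0.86 and 1.19 to 1.28. The BAT1 value in Col, -0.02, was 0.020 with array medians subtracted and -0.083 to 0.039 with single arrays left out, never called.

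Counts over all probe sets moved more. At an adjusted p under 0.01 they were 1299 for DEX in 35S:LOB-GR, 2 in Col, 474 for the difference, 1308 for the genotypes under mock and 3018 under DEX. Fitting only the groups compared gave 1500 for DEX in 35S:LOB-GR and 407 in Col. The Col count was 399 with array weights, 42 with another spread estimate, 32 without the dimmest probe sets, and 2 to 141 with single arrays left out. The cause was not tested. With the replicate block it was 8, and for DEX in 35S:LOB-GR 2177. Same-numbered arrays correlated at -0.23 to 0.19 in their deviations from group means, and arrays of different number and group at -0.27 to 0.34. Of 12 arrays, 2 correlated best with one of their own number. By this measure same-numbered arrays were not clearly more alike than others. With so few arrays per group the deviations depend on each other, so they cannot decide whether same-numbered arrays shared a plate. The block changed no call of BAT1 or BRL1 (BAT1 difference of responses, limma adjusted p = 0.00438).

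Of the 5 genes most like BAT1, 1 was among the first 5 by Pearson correlation and 2 to 5 with single arrays left out. For BRL1 these counts were 3 and 2 to 5.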

Other observations

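Of the 8 genes within 2 positions of BAT1 or BRL1 in the RefSeq gene order, 4 were named for their own probe set. These were AT4G31890 and AT4G31930 near BAT1 and AT1G55590 and AT1G55630 near BRL1. None of the 4 was called for DEX in 35S:LOB-GR, with log2 differences of -0.17, 0.17, -0.10 and 0.11 (limma adjusted p between 0.272 and 0.778, and no unadjusted p under 0.05), beside 9.97% of all probe sets. Under DEX, AT4G31930 (0.25, limma adjusted p = 0.0472) and AT1G55630 (0.36, limma adjusted p = 0.0404) were higher in 35S:LOB-GR than in Col, where 21.5% of all probe sets were called. LAS, the boundary gene described with the brassinosteroid genes, lies a few genes from BRL1 and was not called in any comparison.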
